A study of Drosophila melanogaster with 2 samples.

Results

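This account covers 4 developmental transcription factor genes of the fruit fly, the GATA factor genes pnr (pannier), srp (serpent) and grn (grain) and the forkhead gene fkh (fork head), and the binding of the transcription factor Adf1 around them. They were taken by name from 13968 protein-coding genes, each with 10 kb to either side, and every peak summit in those windows was counted. The data were chromatin immunoprecipitation with sequencing (ChIP-seq) from whole Drosophila melanogaster embryos aged 0 to 24 h, of the strain Adf1-GFP, an insertion line whose flies express an Adf1-eGFP fusion. The series holds 1 group of 2 biological replicates with 1 library each, precipitated with an antibody against the tag, and 0 control samples. Embryos of all stages and tissues were pooled, so binding in the few cells that use 1 of these genes cannot be told apart from binding elsewhere in the embryo. Deposited peak lists were used, which hold no read counts, and the depth of each replicate is unknown.

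GATA factors bind DNA through zinc fingers and take their name from the core of the site they recognise, while forkhead factors bind through a winged-helix domain. In the fly embryo, pnr acts in the dorsal ectoderm, amnioserosa and heart, srp in blood cells, fat body and endoderm, grn in the posterior spiracles and in motor neurons, and fkh, a FoxA homologue, in the salivary glands and gut. Adf1 is a sequence-specific activator of the MADF domain family, first studied on alcohol dehydrogenase.

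All 4 genes had an Adf1 summit within 500 bp of a transcription start site (TSS), against 18.9% of all protein-coding genes. They are referred to below as bound in that sense alone. In the conservative list, the list called across both replicates and used throughout unless another is named, 10 of its 4370 summits lay in the 4 windows. The window of pnr held 2, that of srp 3, that of grn 3 and that of fkh 2. At least 1 summit was found in the windows of 56.9% of protein-coding genes, at least 2 in 30.9% and at least 3 in 15.5%, and all 4 genes reached the first 2 counts while srp and grn reached the highest. These counts are not corrected for window length. Per 10 kb the windows held 0.560 at pnr, 0.791 at srp, 0.555 at grn and 0.823 at fkh, against a median of 0.392. Those densities were reached by 28.7%, 25.3%, 28.7% and 24.3% of protein-coding genes. The peak at the start of fkh stood far above the others, with a signal of 1389 against a list median of 150.6, and the other 9 summits ranged from 68.8 to 295. Signal is the authors' peak-caller value on an unstated scale, so levels are ranked below only within a list, and ratios between the replicates' lists are given as a description.

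All 4 genes lie on chromosome arm 3R (dm6), and their windows do not overlap. The gene pnr (FBgn0003117) runs from 16026079 to 16041796 on the plus strand with 3 annotated TSSs, at 16026079, 16026252 and 16034586. On the same strand, srp (FBgn0003507) runs from 15986152 to 16004085 with 4 TSSs, at 15986152, 15992434, 15994140 and 15999089. A further GATA factor gene, GATAe (16009105 to 16019133, plus strand), which acts in the endoderm, lies between srp and pnr. The gene grn (FBgn0001138, 8147368 to 8181444) is on the minus strand with 1 TSS, at 8181444. The most compact of the 4, fkh (FBgn0000659, 28580976 to 28585264), is also on the minus strand, with TSSs at 28585264 and 28585112.

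The 2 summits upstream of the fkh start are shown first, because they form the strongest peak of the set. Each line holds the 101 bases centred on a summit, taken from the Release 6 genome and written 5′ to 3′ on the strand of the gene. Capitals mark matches, on either strand, to the 10 6-mers that led the other 4360 summits of the conservative list over windows centred 500 bp to each side. They were ranked by the ratio of those shares, among 6-mers present in at least 2% of summit windows. The leader, GACGTC, was in 8.51% of summit windows and 1.09% of flanking ones. Of those marked here, CGACGC was in 15.6% and 3.33%, CGCTGC in 23.9% and 6.06%, and CGTCGC in 16.0% and 4.06%. The pair from fkh is followed by the summit inside srp, which shares a run of 10 bases with the fkh start.
fkh, 141 bp upstream of the TSS, chr3R:28585355-28585455, minus strand: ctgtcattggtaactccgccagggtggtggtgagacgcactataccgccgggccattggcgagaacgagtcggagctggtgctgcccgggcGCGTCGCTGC
fkh, 358 bp upstream of the TSS, chr3R:28585572-28585672, minus strand: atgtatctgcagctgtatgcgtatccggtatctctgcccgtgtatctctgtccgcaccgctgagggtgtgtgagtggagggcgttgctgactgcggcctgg
srp, 372 bp downstream of the third TSS, chr3R:15994462-15994562, plus strand: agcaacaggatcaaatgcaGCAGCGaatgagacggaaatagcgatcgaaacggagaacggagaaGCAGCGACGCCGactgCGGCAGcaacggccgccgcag

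The stronger fkh summit held 3 of these 6-mers, all within 41 to 50 bp downstream of the summit on the strand of fkh, and the weaker one held 0. The srp summit held 6 of them, a number reached by 329 of the other 4360 summits (7.55%). The 6-mers overlap and are not separate matches. Those at fkh form a single stretch, and most of those at srp lie in a stretch from 14 to 25 bp downstream of the summit. The run common to these windows, GCAGCGACGC or GCGTCGCTGC on the other strand, was present in 102 of 4370 summit windows (2.33%) and in 10 of 8740 flanking windows (0.114%). The 102 include both windows. The run is made up of the 3 6-mers of the fkh window, which were picked for their excess over these same flanking windows. Its own excess follows from that choice and is no separate result. Across the 4 genes, 4 of 10 windows (40.0%) held at least 1 leading 6-mer, against 1876 of the other 4360 (43.0%), so the share was close to that of the list. Both windows of pnr held 0.

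The following pair is shown because 2 of the 3 grn summits carry the same 11 bases, marked in capitals. The first lies at the promoter and the other near the far edge of the 10 kb margin.
grn, 144 bp upstream of the TSS, chr3R:8181538-8181638, minus strand: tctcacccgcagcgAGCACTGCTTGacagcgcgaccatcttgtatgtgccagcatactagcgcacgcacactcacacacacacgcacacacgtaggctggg
grn, 9644 bp upstream of the TSS, chr3R:8191038-8191138, minus strand: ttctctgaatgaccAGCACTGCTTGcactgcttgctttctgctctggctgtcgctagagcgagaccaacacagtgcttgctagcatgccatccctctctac

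The run AGCACTGCTTG lay 36 to 26 bp upstream of the summit in both windows on the strand of grn. It was found in 6 of 4370 summit windows (0.137%) and in 0 of 8740 flanking windows. Besides the 2 at grn, the 6 windows included a summit 169 bp upstream of the homeobox gene Lim1 on X, with a signal of 2831. Another 11-base run, CACTCACACAC, was common to the grn promoter window and the weaker fkh window, but occurred in 27 list windows (0.618%) and 18 flanking windows (0.206%). These runs were looked for after the windows were chosen and are given as a description of the sequence.

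The last set is shown for matches to known factors. In the pnr windows, capitals mark GAGAG, the core bound by the Trl protein. In the GATAe window they mark AGATAA, which is the kind of site that zinc fingers of the GATA family recognise.
pnr, 112 bp upstream of the first TSS, chr3R:16025917-16026017, plus strand: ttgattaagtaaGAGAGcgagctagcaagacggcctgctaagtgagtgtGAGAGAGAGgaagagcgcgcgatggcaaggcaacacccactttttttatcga
pnr, 182 bp upstream of the third TSS, chr3R:16034354-16034454, plus strand: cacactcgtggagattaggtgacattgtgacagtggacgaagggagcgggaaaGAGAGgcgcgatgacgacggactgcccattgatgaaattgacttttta
GATAe, 156 bp upstream of an internal TSS, chr3R:16012068-16012168, plus strand: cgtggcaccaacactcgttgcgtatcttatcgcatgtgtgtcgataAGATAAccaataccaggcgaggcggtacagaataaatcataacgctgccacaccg

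The first pnr window held 4 matches to GAGAG, of which 3 overlapped in a run over the summit, and the second held 1, from 3 to 7 bp past the summit. In all, 5 of 10 windows held GAGAG, against 919 of 4370 in the whole list (21.0%) and 13.4% of flanking windows. The windows with a match were both of pnr, the srp window 797 bp upstream of the third TSS, and 2 of grn. Neither fkh window had one. The AGATAA match spanned the summit upstream of GATAe, from 4 bp before it to 1 bp after it, and was the sole one among the 10 windows, against 4.94% of the list and 6.14% of flanking windows. The other form searched, TGATAA, was in 0 of 10 windows and in 6.18% of the list.

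The Adf1-type triplet repeat GCNGCNGC was present in 1 of 10 windows, against 699 of 4370 (16.0%) in the list and 4.78% of flanking windows. The window with matches was that of srp 372 bp downstream of the third TSS, with 3. The core bound by the Polycomb recruiter Pho, GCCAT, was in 3 of 10 windows, those of the fkh and pnr starts and of the distal grn summit, against 16.1% of the list and 16.2% of flanking windows. At fkh it lay from 1 to 5 bp past the summit. The forkhead core TGTTTAC (2.33% of the list), the Zelda site CAGGTA (1.92%) and a longer triplet repeat with 1 more unit (6.13%) were in 0 of 10. Within 100 bp of the summit, CAGGTA and the longer repeat were each in 2 of 10 windows, against 3.73% and 9.18% of the list, and TGTTTAC was in 0. All motifs were searched on both strands within 50 bp of the summit, and GCNGCNGC overlaps its longer form. Median GC content was 55.9% in the 10 windows, from 46.5% to 66.3%, and 48.5% in the list.

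**Figure D1:**
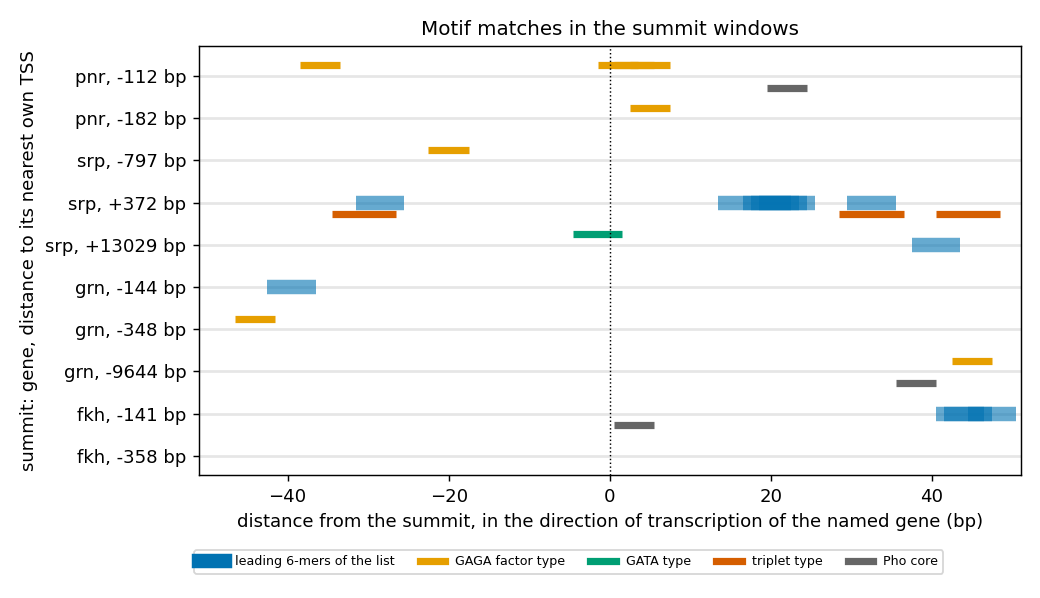
Positions of motif matches in the 101-bp windows of the 10 conservative summits, with bp from the summit on the x axis in the direction of transcription of the gene named on the y axis. Blue bars are the leading 6-mers of the list, which fall in 4 windows, and orange bars are GAGAG matches, which fall in 5.

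The promoter of fkh, the FoxA gene of gut and salivary gland, carried the highest signal of the 4 genes. Its summits lay in 1 interval of 709 bp (chr3R:28585080-28585788) that spans both fkh TSSs. The summits, at 28585405 and 28585622, were 217 bp apart and lay between fkh and the non-coding gene lncRNA:CR43126. The stronger, 141 bp upstream of the outermost TSS, had a signal of 1389 and rank 107 of 4370, in the top 2.45%. In the replicates' own lists its signal was 560 in replicate 1 (rank 82 of 3126) and 821 in replicate 2 (rank 134 of 6003). It was thus among the highest signals of both lists, which differ in length. The weaker summit, 358 bp upstream of that TSS, had a signal of 246 in the conservative list, 119 in replicate 1 and 116 in replicate 2. It was below the stronger one in every list.

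Replicate 2 usually gave higher values than replicate 1: across 3845 summits matched within 100 bp in both ranked lists, the median ratio of replicate 2 to replicate 1 was 1.67, with 5% of ratios below 0.907 and 5% above 3.30. At fkh the ratio was 1.47 for the stronger summit and 0.970 for the weaker. As the scales of the replicates are not stated, these ratios describe the lists and not a difference in binding.

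At grn, which directs cell rearrangement in the posterior spiracles and guides motor axons, the main summit lay at 8181588, 144 bp upstream of its sole TSS. Its signal was 295 in the conservative list, 143 in replicate 1 and 151 in replicate 2. It ranked 994 of 4370, 723 of 3126 and 1313 of 6003 in those lists, in the upper part of each. A second summit 204 bp farther upstream, at 8181792, had a signal of 68.8 and rank 4141 of 4370, and its interval overlapped that of the main summit. With a score of 922 it was the least supported of the 10. The score is the authors' scaled irreproducible discovery rate from 0 to 1000, and 830 is the lowest in each thresholded list. In the optimal ranked list it scored 555 and so was absent from the optimal thresholded list, in replicate 2's ranked list it had a signal of 52.6 and a score of 166, and replicate 1 had no summit within 100 bp.

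The third grn summit, at 8191088, lay 9644 bp upstream of the TSS, outside any gene, and its nearest TSS of any kind was that of lncRNA:CR43302, 6623 bp away. Its signal was 154 in the conservative list, 47.8 in replicate 1, where its score of 293 was below the threshold, and 93.5 in replicate 2, where it was in the thresholded list. This distal site was thus called in 1 replicate alone, although the list across replicates holds it. The transcribed body of grn and the tRNA genes beyond its 3' end held no conservative summit.

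Binding at pnr was spread over both of its promoters. The summit at 16025967 lay between genes 112 bp upstream of the outermost TSS, and the summit at 16034404 lay in an intron 182 bp upstream of the third TSS, 8437 bp from the first summit. Their signals were 144 and 162 in the conservative list (ranks 2303 and 1991), 51.9 and 47.5 in replicate 1, and 95.9 and 107 in replicate 2. The order of the promoters therefore differed between replicates, and neither can be called the stronger. They ranked 2409 and 2616 of 3126 in replicate 1's list, and 2316 and 1984 of 6003 in replicate 2's, a longer list.

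A pair of weaker sites appeared in the pnr window in other lists only. One, in the optimal list, lay in the pnr 5' UTR at 16026170, 82 bp upstream of the second TSS, with a signal of 30.9 and rank 5460 of 5607. Its score of 1000 equals that of the overlapping peak 203 bp away at the outermost start, and in the conservative ranked list it scored 370. The other, in replicate 2's list, lay 37 bp upstream of msps, which encodes a microtubule-associated protein, with a signal of 59.9 and a score of 845.

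At srp, the regulator of blood cell and fat body fate, summits lay inside the gene and beyond its 3' end, and none of the conservative list was at its outermost start. The strongest, at 15993343 with a signal of 268, fell in an srp 5' UTR exon that is also an exon of lncRNA:CR44133, 797 bp upstream of the third TSS and 909 bp downstream of the second. It was in both replicates' lists, with signals of 85.1 and 186 in replicates 1 and 2. The next, at 15994512 with a signal of 154, was 372 bp downstream of the third TSS, in sequence that is coding in some transcripts and intron in others. It alone makes srp a bound gene. Its signal was 113 in replicate 2 and 39.0 in replicate 1, where it scored 767 and fell below the threshold.

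The third summit in the srp window, at 16012118, was 13029 bp from the nearest TSS of srp and lay in an intron of GATAe, 156 bp upstream of an internal start of that gene. Its signal was 194 in the conservative list and 150 in replicate 2, while in replicate 1 it was 46.5 with a score of 820, just below the threshold. By position it is a GATAe promoter peak, and it counts for srp only through the 10 kb margin. The ratios of replicate 2 to replicate 1 at the last 2 sites, 2.91 and 3.23, were reached by 8.76% and 5.70% of the 3845 summits matched in both ranked lists.

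The outermost srp start was called in replicate 2 and in the optimal list. A summit at 15986009, 143 bp upstream, had a signal of 80.5 and a score of 959 in the optimal list and 60.6 in replicate 2. In replicate 1's ranked list the strongest summit within 100 bp, 92 bp away, had a signal of 10.8 and a score of 130. A site downstream of srp at 16005262, in an exon of lncRNA:CR42839, had signals of 80.2 in the optimal list and 76.9 in replicate 2, and replicate 1 had none within 100 bp. Replicate 2's list alone added summits at 15986202 and 15994728, with signals of 4.01 and 4.63. These lie near the bottom of its 6003 summits (top 99.1% and 98.9%) and share the scores, 959 and 1000, of the stronger peaks that overlap them.

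**Figure D2:**
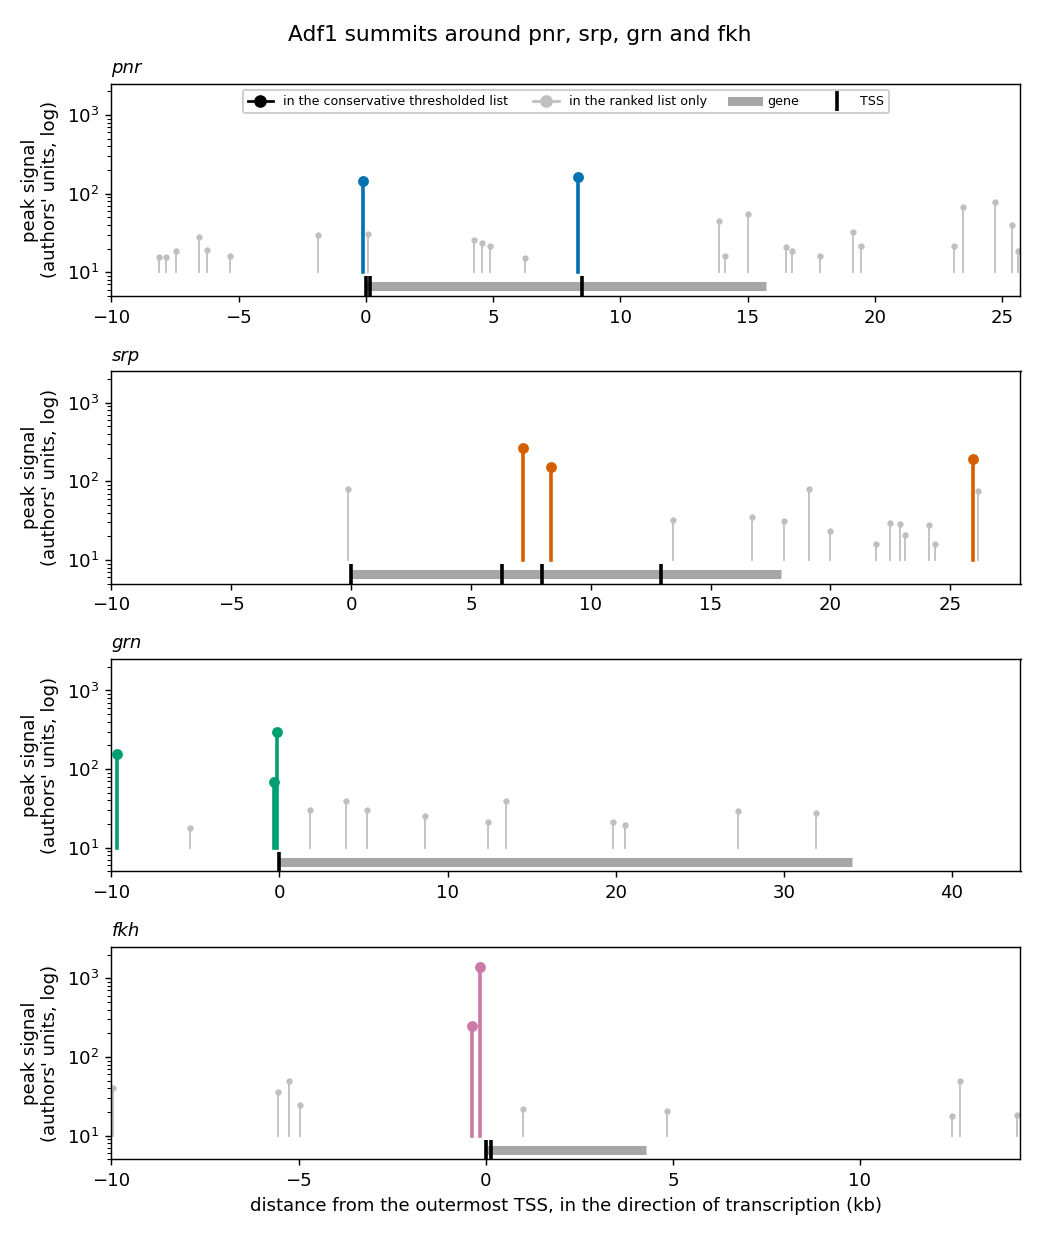
Adf1 summits in the windows of pnr, srp, grn and fkh, with distance from the outermost TSS in kb along the direction of transcription on the x axis and the authors' peak signal on a log axis. Coloured stems are the 10 conservative summits, grey stems are in the ranked list only, the grey bar is the gene and black ticks are its TSSs. The fkh start reaches 1389, and in srp no coloured stem stands at the outermost TSS.

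Of the 10 summits, 7 lay within 500 bp of a TSS of the gene whose window held them, and 8 (80.0%) within 500 bp of a TSS of any protein-coding gene, against 2544 of 4370 (58.2%) in the list. For 8 of the 10 the summit was upstream of the nearest TSS of its own gene. The median distance to a protein-coding TSS was 265 bp in the windows and 252 bp in the list.

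Below the threshold, the windows differed in how many summits they held. The pnr window held 27 summits in the conservative ranked list, of which 25 scored below 830, and at least that many were found at 1.60% of protein-coding genes. The count was 16 for srp (8.73% of genes), 14 for grn (14.3%) and 11 for fkh (27.3%), with a median of 7 over all genes. Window length differs, so the density is given too: 7.56 per 10 kb at pnr, 4.22 at srp, 2.59 at grn and 4.53 at fkh, against a median of 2.91. The density at pnr was reached by 1.93% of genes in the conservative ranked list and by 6.46% in replicate 1's ranked list. The pnr window also takes in the starts of Jhbp4, Jhbp5, IKKbeta, CG5013 and msps and part of GATAe, so not all of its summits lie at pnr. The crowding in the pnr window was weaker in replicate 2's longer ranked list, where 31 summits were reached by 8.71% of genes. Its density there, 8.68 per 10 kb against a median of 6.52, was reached by 30.3% of genes and was below that of srp (8.96). Nearest to the threshold in the conservative ranked list were a pair at IKKbeta and CG5013 in the pnr window, with scores of 653 and signals of 21.8 and 68.1, and just inside it was the grn summit with the score of 922.

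Replicate support was close to that of the list. By interval overlap, 7 of 10 summits (70.0%, 95% Wilson interval 39.7 to 89.2%, counting error only) were in the thresholded lists of both replicates, against 2937 of 4370 (67.2%, 65.8 to 68.6%). All 10 overlapped a peak of replicate 2, and the 3 without a peak of replicate 1 were the srp exon site, the GATAe promoter and the distal grn site. By summit position within 100 bp, the second grn summit was missing too, and the count was 6. The windows held 6 summits in replicate 1's list, 14 in replicate 2's and 12 in the optimal list.

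**Figure D3:**
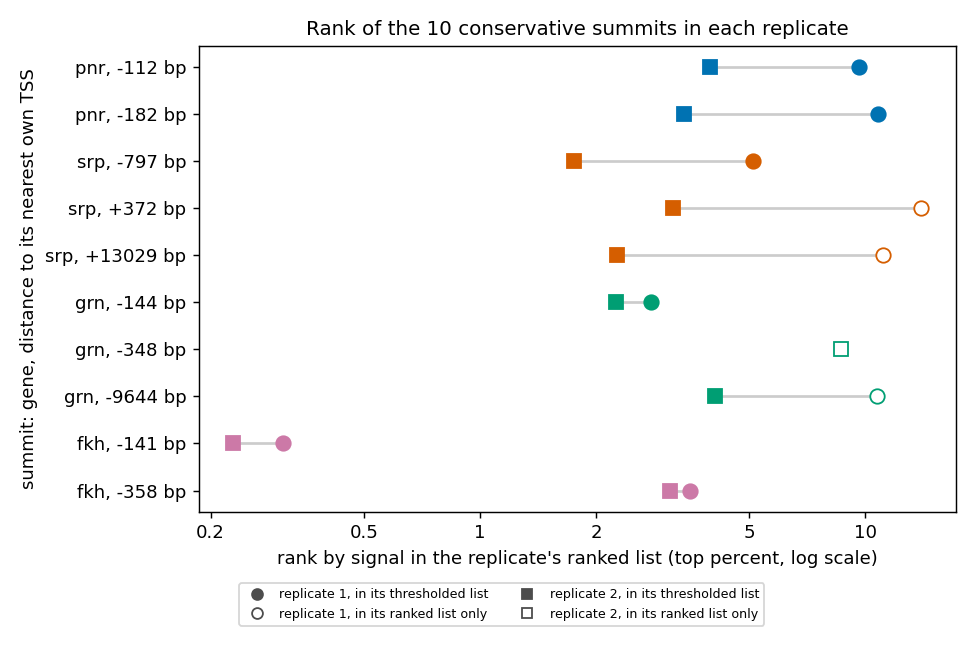
Rank by signal of the 10 conservative summits in the ranked list of each replicate, as top percent on a log axis (of 27254 summits in replicate 1 and 61519 in replicate 2), with rows named by gene and distance to the nearest own TSS. Circles are replicate 1 and squares replicate 2, and open symbols were below the threshold. The fkh summit 141 bp upstream lies in the top 0.308% and 0.229%, and the second grn summit has no circle because replicate 1 had none within 100 bp.

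Taking the highest signal within 500 bp of any TSS, fkh ranked 78 of 2636 bound genes (top 2.96%), grn 602 with 295, pnr 1219 with 162 and srp 1311 with 154, against a median of 153. In replicate 1, where 14.3% of genes were bound, 3 of the 4 were, with 560 at fkh, 143 at grn and 51.9 at pnr, and srp had no summit. In replicate 2, where 23.2% were bound, all 4 were, with 821 at fkh, 151 at grn, 113 at srp and 107 at pnr. In the optimal list all 4 were bound as well, against 23.2% of genes. In both replicates fkh stood above grn, and grn above pnr. The place of srp is less sure, since its value in replicate 1, 39.0 in the ranked list, was below the threshold. Its order with pnr also depends on the limit of 500 bp. That limit leaves out the strongest srp summit, 797 bp upstream of the third TSS, with 268 in the conservative list, 85.1 in replicate 1 and 186 in replicate 2. Each of these is above the highest pnr value in the same list.

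**Figure D4:**
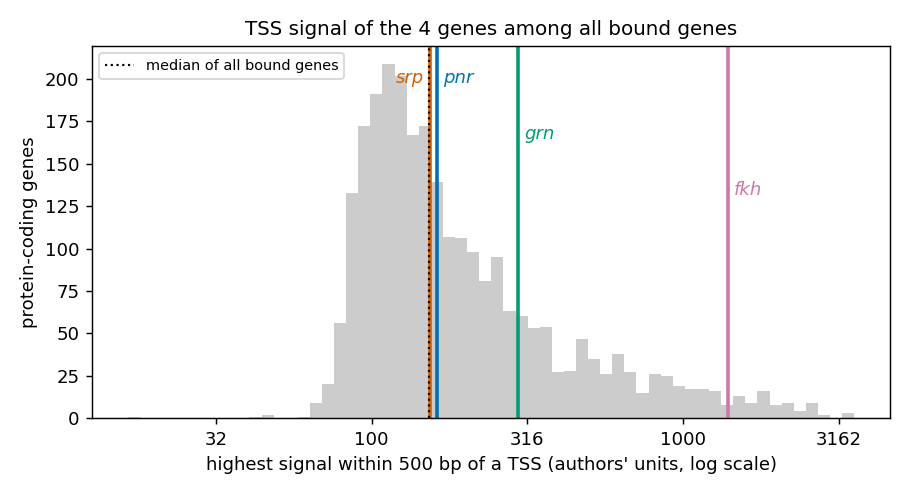
Highest signal within 500 bp of a TSS for the 2636 bound protein-coding genes (x axis, authors' units, log scale; y axis, number of genes). Coloured lines mark the 4 genes and the dotted line the median of 153, with srp and pnr beside it and fkh, at 1389, in the upper tail.

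The genes most like each in signal at the start in both replicates and in summit number were caps and CG10444 for pnr, Chd64 and wapl for srp, Bulli and CG10147 for grn, and CG7029 and Gs2 for fkh. Likeness was the sum of absolute log2 differences over 3 values, among 5958 genes. The sums were 0.03 for both partners of pnr, 0.14 and 0.15 for those of srp, 0.09 for both of grn, whose values are identical, and 0.22 and 0.23 for those of fkh. For example, caps had 52.2 in replicate 1 and 108 in replicate 2, where pnr had 51.9 and 107. These are the highest values at any start, and those of pnr come from the outermost start in replicate 1 and the third TSS in replicate 2.

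The relatives of these genes were bound in part. Among the other GATA and FOG genes, 2 of 3 were bound, against 18.9% of all genes: ush, whose FOG protein partners GATA factors, with a signal of 370, and GATAe with 194, while GATAd had no conservative summit in its window. In replicate 1, where 14.3% of all genes were bound, ush alone was bound, and in replicate 2, where 23.2% were, both were. Among 16 other forkhead genes, 5 were bound, against 18.9% of all genes. They were fd59A (853), croc, a head gene (505), CHES-1-like (383), FoxK (244) and slp2, a segmentation gene (107). All were below fkh. In replicate 1, 4 of the 16 were bound, against 14.3% of all genes, and in replicate 2, 6, against 23.2%. The windows of the forkhead genes bin and foxo, with 10 kb to either side, held 4 conservative summits each. None was within 500 bp of a TSS of bin or foxo. At least 3 summits were found in the windows of 15.5% of protein-coding genes. The highest signal in the bin window, 583, is also the value at a start of Mp, so such a window can hold summits of other genes.

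Genes of the tissues in which these factors act were counted in 4 lists, to be read against the 18.9% of all genes that were bound. The lists do not say whether a gene acts above, with or below the factors. Of 15 salivary gland and gut genes, 6 were bound (median signal 268), led by CrebA, a driver of secretory capacity (495), drm (428), cad (276) and bowl (260), while sage, sens and hkb had no summit in their windows. Of 13 blood, fat body and endoderm genes, 3 were bound, kn (378), ush and GATAe, and gcm and lz had summits in their windows but not at a start. Of 18 dorsal ectoderm, amnioserosa and heart genes, 12 were bound (median 389), led by the BMP ligand gene dpp (1349), peb (928), tup (530) and C15 (512). Of 7 posterior spiracle genes, 6 were bound (median 164), led by ct (1231), nub (195), the Hox gene Abd-B (176) and ems (151). The share was 23.1% in the blood list, near that of all genes, and 85.7% in the spiracle list. In replicate 1, where 14.3% of all genes were bound, the counts in the order given were 6, 2, 11 and 4. In replicate 2, where 23.2% were bound, they were 7, 4, 13 and 7. The spiracle count thus moved from 4 of 7 to 7 of 7 between replicates. The lists hold few genes, differences between them were not tested, and ush and GATAe stand in more than 1.

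**Figure D5:**
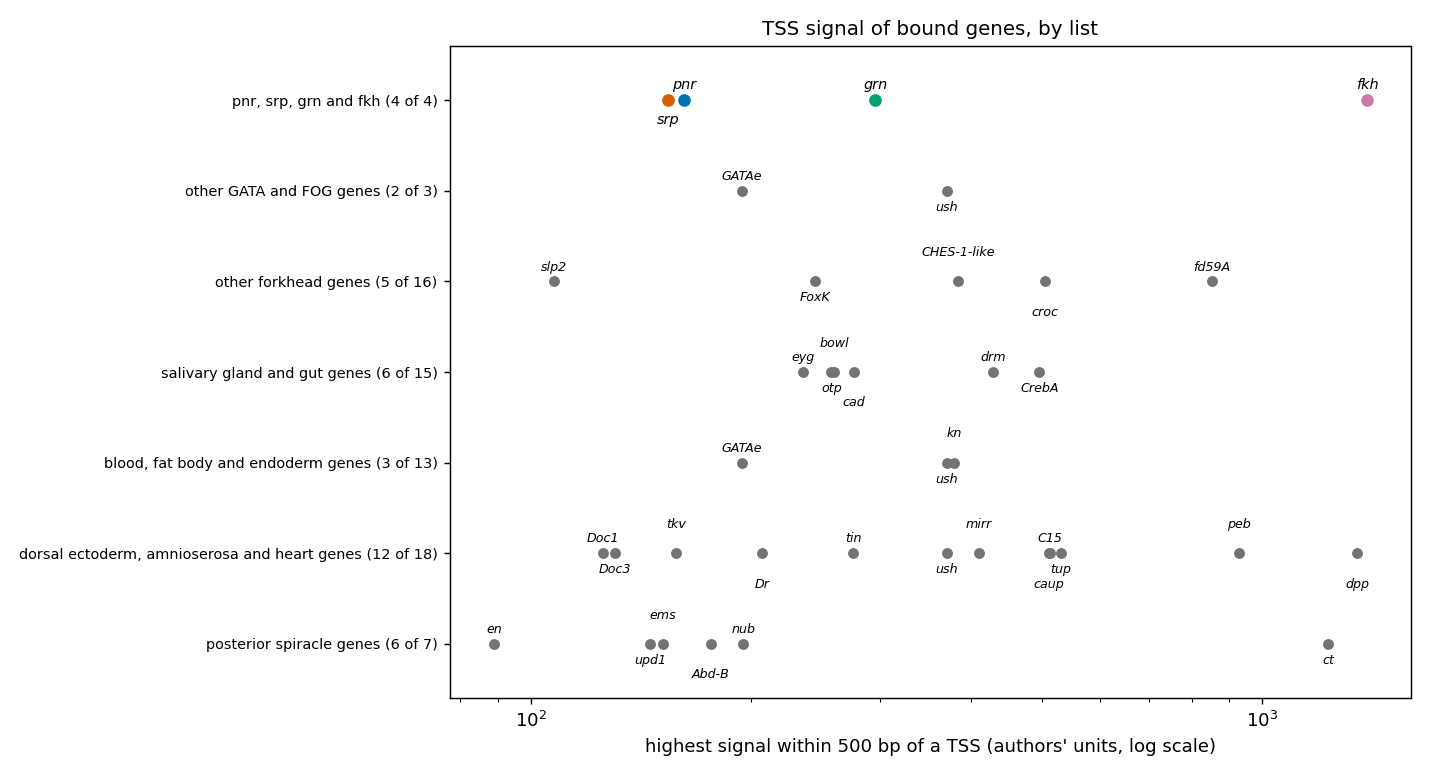
Highest signal within 500 bp of a TSS (x axis, authors' units, log scale) for bound genes, with the 4 genes in the top row and 1 row per gene list below. The numbers in brackets are bound genes of all genes in the list, and fkh at 1389 is the point farthest right, just above dpp at 1349.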

How the data were processed

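Peak lists from 2 biological replicates were used, all on dm6 per the labels. The authors derived them from alignments and a control file, per the deposited file lists; aligner and peak caller are not given in the sources used. The score in column 5 is the authors' scaled irreproducible discovery rate. The signal in column 7 comes from the authors' peak caller, on an unstated scale. The deposited -log10 q values enter no result. The authors' summit offset gave positions, written here 1-based.

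The 8 lists were a thresholded and a ranked one for each replicate and for the conservative and optimal calls. The ranked lists of the whole series were assigned to those calls by matching peaks and scores. Summits on 7 arms were counted in each gene with 10 kb to either side. Genes were the 13968 protein-coding genes of Ensembl release 115 (BDGP6.54), and a TSS was the 5' end of any transcript. Arm lengths of the RefSeq Release 6 genome exceeded every peak end, and sequences were read from it. Replicate values were taken from each replicate's own lists, at the summit with the highest signal within 100 bp. No test between groups was possible with 1 group. The genes, lists, motifs and rules were chosen with earlier results of these data known, and the 6-mers and shared runs were added after the windows were seen. Named genes were the 4, genes nearest to their summits, all bound relatives, up to 4 bound genes of each other list and the 2 most alike; others were named after their values were seen. The summit and motif counts were tested on simulated data. Software was Python (version 3.11.15), with NumPy in version 2.4.6, SciPy in 1.17.1, and for figures Matplotlib in 3.10.9. Alternatives were other lists, windows, distances, overlaps and motifs, and the list-gene and TSS-distance counts under other lists were added after seeing the data. Depth is unknown, since no read counts were used, and intervals cover counting error only.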

Additional observations from a re-analysis of the deposited data

How the results depend on the processing

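Of 43 alternative values, 35 stayed within 1.5 times the count or within 1 SD between replicates, and 8 moved. That SD came from the same 2 replicate values that were judged by it, so the limit widens where the replicates differ. Small counts can move with a change of 1. The tally is therefore no measure of stability, and the values themselves are given below. The 10 summits ranged from 6 in replicate 1's list (without replicate 2) to 14 in replicate 2's (without replicate 1), and the 4 bound genes from 3 to 4, since srp was not bound in replicate 1. The top percent of the best summit, which also moves with list length (3126 and 6003), ranged between replicates from 33.1% to 77.1% at pnr, 17.0% to 42.6% at srp, 21.9% to 23.1% at grn and 2.23% to 2.62% at fkh. The ranks in replicates 1 and 2 were 2409 and 1984 at pnr, 1332 and 1023 at srp, 723 and 1313 at grn, and 82 and 134 at fkh. In the longer optimal list the top percent was 17.7% at grn and 1.91% at fkh, by construction, as more summits rank below the same peaks. Windows with GCNGCNGC numbered 1 in replicate 1's list and 2 in replicate 2's, 0 within 25 bp of the summit, 2 within 100 bp and 0 for the longer triplet, against 16.0% of the list at 50 bp and 23.8% at 100 bp, near the 1 and 2 of 10 in the windows. Bound genes of the 69 in the lists numbered 26 in replicate 1 and 36 in replicate 2, where 14.3% and 23.2% of all protein-coding genes were bound. Summits near their own TSS ranged from 5 to 8 between replicates. With a limit of 200 bp, or the outermost TSS alone, 3 of the 4 genes were bound. The share of all protein-coding genes was not counted at these settings. The 18.9% for 500 bp of any TSS is therefore no yardstick for these counts. Peak lists give no depth, so the part of depth in the calls missing from replicate 1 was not tested. No paired analysis was possible because there is 1 group.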
